A study of Macaca fascicularis with 12 samples.

Results

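Cathepsins, legumain and cystatin C were followed in the iliac artery of 12 female cynomolgus monkeys (Macaca fascicularis) that differed in the size of their atherosclerotic plaque. The genes were the proteases CTSB, CTSC, CTSD, CTSH, CTSK, CTSL, CTSS, CTSZ and LGMN and the inhibitor CST3. Their members on the array were the probes whose only gene symbol in the platform annotation was one of these names. Old symbols had first been brought up to date by gene ID. This gave 15 probes of 10 genes, 14 for proteases and 1 for CST3, out of 54359 probes in the table. All 15 had a value in every artery and were among the 53877 probes tested. CTSB, CTSC, CTSS, CTSZ and LGMN had 2 probes each, called below the brighter and the dimmer by their mean over the 12 arteries.

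All 12 animals were older than 20 years, had eaten a high fat diet over the previous 8 years, had lost their ovaries 4 years earlier and received no other treatment per the labels. Each gave 1 left iliac artery biopsy and 1 array, so replicates were separate animals. The small group held 4 animals with plaque areas of 0, 0, 0.041 and 0.113 mm2. The medium group held 5 animals with 0.30 to 0.542 mm2 and the large group 3 animals with 0.61 to 1.003 mm2. No plaque-free group was separate from the small group, and the tissue was whole artery, not dissected plaque. In such bulk tissue fewer cells of a type and less RNA per cell cannot be told apart.

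Cathepsins are proteases of the lysosome. Most of those described here, namely CTSB, CTSC, CTSH, CTSK, CTSL, CTSS and CTSZ, are papain-like cysteine proteases, CTSD is an aspartic protease, and legumain cuts after asparagine and helps mature several cathepsins. In the arterial wall, macrophages and smooth muscle cells can secrete them, and CTSK, CTSL and CTSS are known as elastin- and collagen-degrading enzymes. Cystatin C, encoded by CST3, is the abundant extracellular inhibitor of the papain-like enzymes and also inhibits legumain at a separate site, but does not inhibit CTSD.

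Values are log2 of the deposited probe intensity, which was scaled so that the median probe of each array lay near 0. A difference of 1 is a 2-fold difference. The lowest values were set to a floor of -3.17. The level of one probe says nothing about the level of another, so differences are between arteries for the same probe. Arrays resembled each other, with correlations across probes between 0.918 and 0.972. The first principal component, with 25.1% of the variance, placed the small group at -90.9 to -55.2, the medium group at 13.5 to 84.6 and the large group at 17.3 to 54.7.

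On the brighter or only probe of each gene, CTSS and CTSB showed the greatest differences from small arteries. Their dimmer probes, given further on, differed less. CTSS encodes cathepsin S, an elastin-degrading enzyme of antigen-presenting cells that also trims the invariant chain of MHC class II. On its brighter probe the small arteries had 1.05, -0.54, 0.40 and -0.05, the medium arteries 5.74, 4.24, 3.65, 3.83 and 3.43, and the large arteries 5.25, 4.07 and 5.40. Every medium and large artery lay above every small one, by more than 2 log2 units at the closest. CTSS rose by 3.96 ± 0.48 in medium against small arteries (SE, n = 5 and 4; limma adjusted p 0.00136) and by 4.69 ± 0.55 in large against small arteries (SE, n = 3 and 4; limma adjusted p 0.002).

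CTSB encodes cathepsin B, a lysosomal protease with both endopeptidase and carboxypeptidase activity. Its brighter probe had -0.38, -1.11, -0.22 and 0.04 in small arteries, 5.27, 3.77, 2.99, 2.76 and 1.82 in medium arteries and 4.67, 3.78 and 4.35 in large arteries. The medium group was the most spread out, with an SD of 1.29 against 0.49 in the small group. CTSB rose by 3.74 ± 0.55 in medium against small arteries (limma adjusted p 0.00414) and by 4.68 ± 0.63 in large against small arteries (limma adjusted p 0.00474). The calls of the brighter CTSB and CTSS probes in both comparisons held under all 27 alternative settings.

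CTSC, cathepsin C or dipeptidyl peptidase I, activates the serine proteases of granulocytes and cytotoxic cells. On the brighter probe it stood at -0.11, -0.90, -0.35 and -0.37 in small arteries, at 3.03, 2.84, 2.27, 3.49 and 2.79 in medium arteries and at 1.58, 1.93 and 3.37 in large arteries. It rose by 3.31 ± 0.35 in medium against small arteries (limma adjusted p 0.000504) and by 2.72 ± 0.40 in large against small arteries (limma adjusted p 0.00782). The large arteries with the largest and the smallest area of that group were below all 5 medium arteries on this probe.

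**Figure D1:**
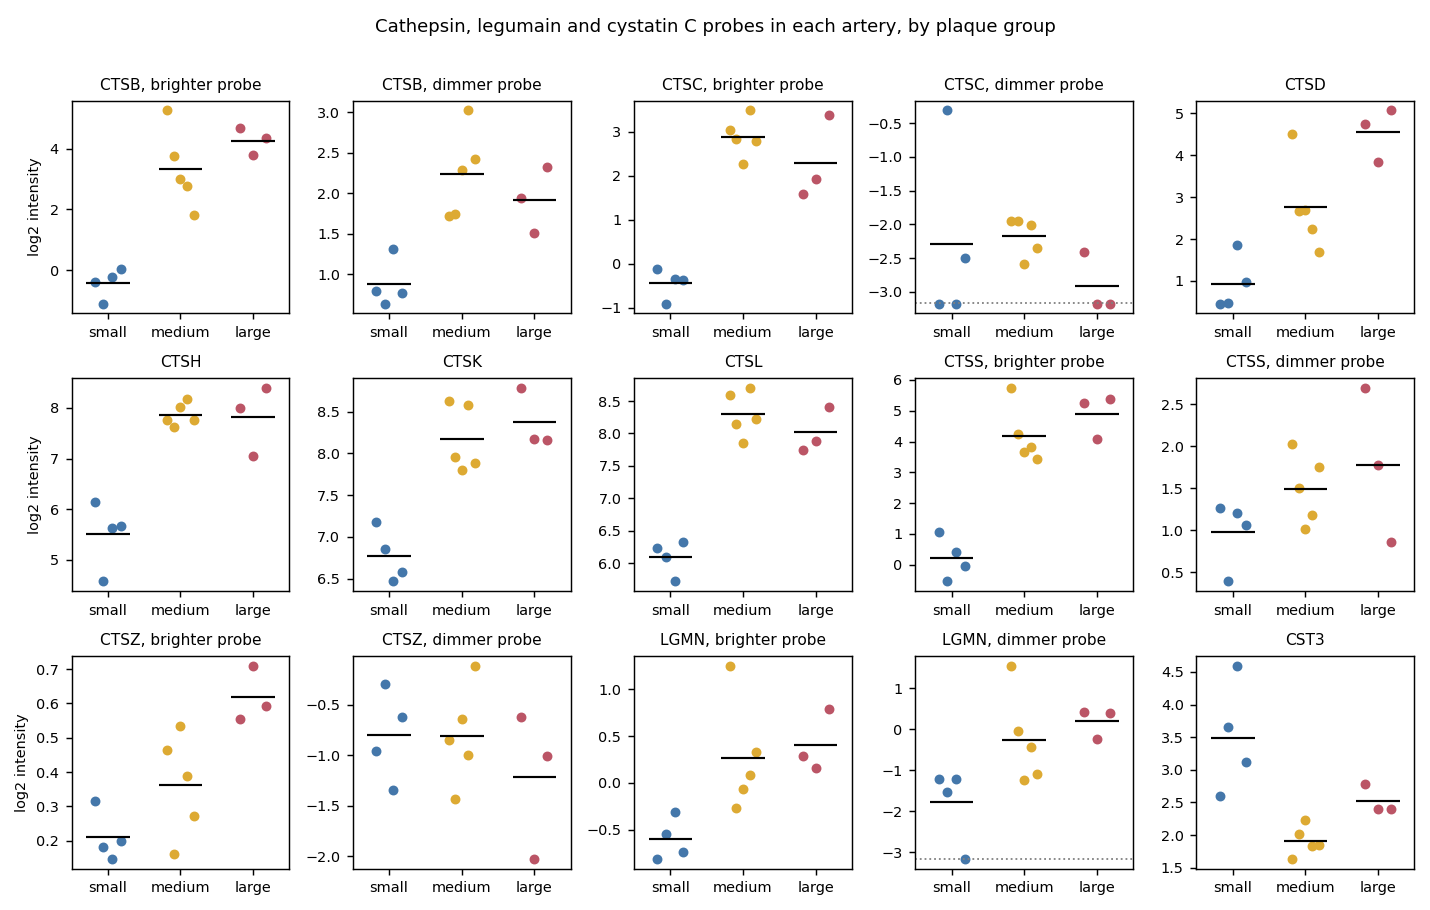
Log2 intensity of each of the 15 probes by plaque group (4 small, 5 medium and 3 large), 1 point per artery, with a bar at the group mean; each panel has its own vertical scale and a dotted line marks the floor where a value reached it. Brighter probes of CTSB, CTSC and CTSS and the probes of CTSH, CTSK and CTSL keep the small group below the others, whereas the 3 highest CST3 values are those of small arteries.

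CTSH, CTSL and CTSK gave signals far above the floor in every artery. CTSL encodes cathepsin L, another endopeptidase. It had 6.23, 6.09, 5.72 and 6.32 in small arteries, 8.59, 8.14, 7.85, 8.70 and 8.22 in medium arteries and 7.75, 7.89 and 8.41 in large arteries. The gap between the highest small and the lowest large artery was greater than the range within any group. CTSL rose by 2.21 ± 0.22 in medium against small arteries (limma adjusted p 0.000424) and by 1.93 ± 0.25 in large against small arteries (limma adjusted p 0.00426).

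CTSH, the aminopeptidase cathepsin H, had 6.15, 4.58, 5.63 and 5.66 in small arteries. Its values were 7.76, 7.63, 8.02, 8.18 and 7.76 in medium arteries and 8.00, 7.05 and 8.39 in large arteries. The medium group was tight, with an SD of 0.22, while the large group spanned it on both sides. CTSH rose by 2.36 ± 0.32 in medium against small arteries (limma adjusted p 0.00271) and by 2.31 ± 0.37 in large against small arteries (limma adjusted p 0.0128).

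CTSK encodes cathepsin K, the collagenase best known from osteoclasts and also made by macrophages and smooth muscle cells. It stood at 7.17, 6.86, 6.47 and 6.58 in small arteries, at 8.63, 7.96, 7.80, 8.58 and 7.88 in medium arteries and at 8.78, 8.18 and 8.15 in large arteries. This was the smallest of the called rises among the brighter or only probes, 1.40 ± 0.24 in medium against small arteries (limma adjusted p 0.00987) and 1.60 ± 0.27 in large against small arteries (limma adjusted p 0.0174). Groups did not overlap in either comparison with small. Of 6 osteoclast markers only OSCAR and CALCR were measured. OSCAR rose by 1.03 ± 0.23 in medium against small arteries (limma adjusted p 0.0335), where 1.97% of all probes were called higher. In large against small arteries OSCAR differed by 1.08 ± 0.26 and did not pass (limma adjusted p 0.0701). CALCR averaged 0.30 in small, 0.15 in medium and 0.10 in large arteries.

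CTSD, cathepsin D, was the only protease called in large against small arteries but not in medium against small arteries. It had 0.46, 0.46, 1.87 and 0.97 in small arteries, 4.52, 2.66, 2.69, 2.24 and 1.69 in medium arteries and 4.75, 3.84 and 5.08 in large arteries. The lowest medium artery lay below the highest small one, and the highest medium artery lay within the large group. CTSD rose by 3.61 ± 0.58 in large against small arteries (limma adjusted p 0.0128) and differed by 1.82 ± 0.51 in medium against small arteries (limma adjusted p 0.0782). Its direct difference between large and medium arteries was 1.79 ± 0.55, with a 95% interval of 0.59 to 3.00 before adjustment and a limma adjusted p of 0.856.

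Legumain by its own level did not pass the test in any comparison, although both probes had higher means in medium and large arteries. On the brighter LGMN probe the small arteries had -0.81, -0.55, -0.32 and -0.74, the medium arteries 1.25, -0.27, -0.06, 0.09 and 0.33 and the large arteries 0.28, 0.15 and 0.79. All medium and large arteries lay above the small ones, medium replicate 2 only just above small replicate 3. The differences from small were 0.87 ± 0.28 in medium arteries (limma adjusted p 0.124) and 1.01 ± 0.32 in large arteries (limma adjusted p 0.149). On the dimmer probe, where small replicate 4 was at the floor, they were 1.53 ± 0.55 (limma adjusted p 0.166) and 1.98 ± 0.63 (limma adjusted p 0.15).

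CTSZ, the carboxypeptidase cathepsin Z, had the smallest differences of the brighter or only protease probes. Its brighter probe ranged from 0.15 to 0.32 in small arteries, from 0.16 to 0.53 in medium arteries and from 0.56 to 0.71 in large arteries. The difference from small was 0.15 in medium arteries, with a 95% interval of -0.14 to 0.45, and 0.41 in large arteries, with an interval of 0.08 to 0.74 and a limma adjusted p of 0.218. On its dimmer probe the differences were -0.003 and -0.42, with limma adjusted p-values of 0.997 and 0.635. These intervals leave room on the brighter probe for a rise in large arteries of up to 0.74, well short of the lower bounds found for CTSS or CTSB on their brighter probes. The brighter and dimmer CTSZ probes correlated at r = -0.304 over all arteries. Whether either follows CTSZ RNA in the monkey was not tested.

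Probes of the same gene did not always tell the same story. The dimmer CTSB probe had 0.79, 0.63, 1.30 and 0.76 in small arteries, 1.72, 1.75, 2.28, 3.03 and 2.42 in medium arteries and 1.94, 1.50 and 2.32 in large arteries. Medium replicate 1, the highest of its group on the brighter CTSB probe, was the lowest on this one. The dimmer probe rose by 1.37 ± 0.28 in medium against small arteries (limma adjusted p 0.0234), a call lost without small replicate 1, 2 or 4 or medium replicate 5. In large against small arteries it differed by 1.05 ± 0.32 (limma adjusted p 0.134).

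The dimmer CTSS probe differed by 0.51 ± 0.34 in medium against small arteries (limma adjusted p 0.469) and by 0.80 ± 0.39 in large against small arteries (limma adjusted p 0.346). Its 95% intervals ended at 1.26 and 1.65, below the lower bounds of the brighter probe, so the probes measured unequal changes. The dimmer CTSC probe was at the floor in 2 small and 2 large arteries and differed by 0.11 ± 0.49 in medium and -0.63 ± 0.56 in large against small arteries. Probes were designed for human transcripts. Whether mismatches to the monkey sequence or different transcripts lie behind the unequal probes was not tested.

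CST3 moved the other way. It had 2.60, 3.65, 4.59 and 3.12 in small arteries, 1.63, 2.01, 2.23, 1.83 and 1.85 in medium arteries and 2.78, 2.41 and 2.40 in large arteries. All medium arteries lay below all small ones, whereas large replicate 1 lay above small replicate 1. CST3 fell by 1.58 ± 0.32 in medium against small arteries (limma adjusted p 0.0232) and differed by -0.96 ± 0.37 in large against small arteries (limma adjusted p 0.228). The call in medium was lost under 7 of 27 alternatives, with adjusted p-values up to 0.0702, among them those without small replicate 2 or medium replicate 1, 4 or 5 and that with the replicate number as a block. In the direct comparison all 3 large arteries lay above all 5 medium ones, by 0.62 ± 0.35 on average (limma adjusted p 0.962).

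A further probe carries the symbols of CST3 and PA2G4 together in the annotation and could not be assigned to either gene. It differed by -0.54 ± 0.26 in medium against small arteries (limma adjusted p 0.303) and by -0.08 ± 0.30 in large against small arteries (limma adjusted p 0.927). What is said here of CST3 rests on its only single-symbol probe.

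**Figure D2:**
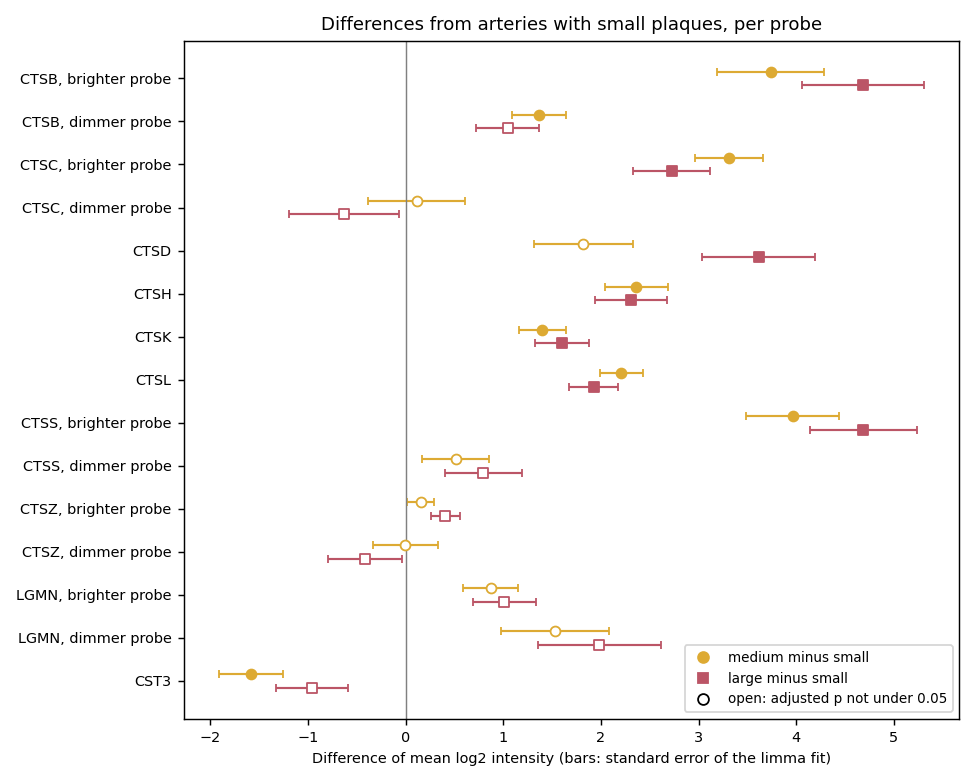
Difference of mean log2 intensity from the small group for each probe, in medium arteries (circles) and large arteries (squares), with the standard error of the limma fit; filled symbols had an adjusted p under 0.05. The 7 filled protease symbols of each comparison lie to the right of 0, and CST3 is filled only for medium, to the left.

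In medium against small arteries 7 of 14 protease probes were called higher, against 1.97% of all probes tested, and 0 were called lower. They belonged to 6 of the 9 protease genes, namely CTSB with both probes, CTSC, CTSH, CTSK, CTSL and CTSS. In 8 of 14 probes all medium arteries lay above all small ones, which held for 3.94% of the probes on the array. The median difference of the 14 protease probes was 1.47, that of all probes -0.09. CST3 was called lower, as were 1.17% of all probes, and its medium arteries all lay below its small ones, as they did in 4.34% of all probes.

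In large against small arteries 7 of 14 protease probes were called higher, against 0.948% of all probes tested, and 0 of 15 member probes lower, against 0.197%. They were of 7 genes, CTSB, CTSC, CTSD, CTSH, CTSK, CTSL and CTSS. In 11 of 14 probes all large arteries lay above all small ones, against 5.99% of all probes. The median difference was 1.76, that of all probes -0.10. The count was 4 without large replicate 1 and 4 without large replicate 3, since CTSD, CTSH and CTSK lost their calls without either animal. The comparisons with small share the same 4 small arteries, so they are not independent of each other.

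Large arteries were then set against medium arteries, to ask whether the proteases differed beyond the first difference from small. With limma 0 of 15 member probes were called and 0% of all probes. CTSD had the smallest unadjusted p of the 15, 0.00704 (limma adjusted p 0.856). In 2 of 15, the brighter CTSZ probe and CST3, all large arteries lay above all medium ones, against 2.52% of all probes. The differences on the brighter probes were 0.94 ± 0.60 for CTSB and 0.73 ± 0.52 for CTSS, with 95% intervals from -0.36 to 2.25 and from -0.41 to 1.86. CTSC at -0.59 ± 0.38 and CTSL at -0.28 ± 0.24 had the opposite sign, with intervals from -1.41 to 0.24 and from -0.81 to 0.24. CTSH differed by -0.05 ± 0.35 and CTSK by 0.20 ± 0.26. The intervals of CTSB and CTSS therefore allow a further rise of more than 1 log2 unit, and those of CTSH, CTSK and CTSL do not.

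**Figure D3:**
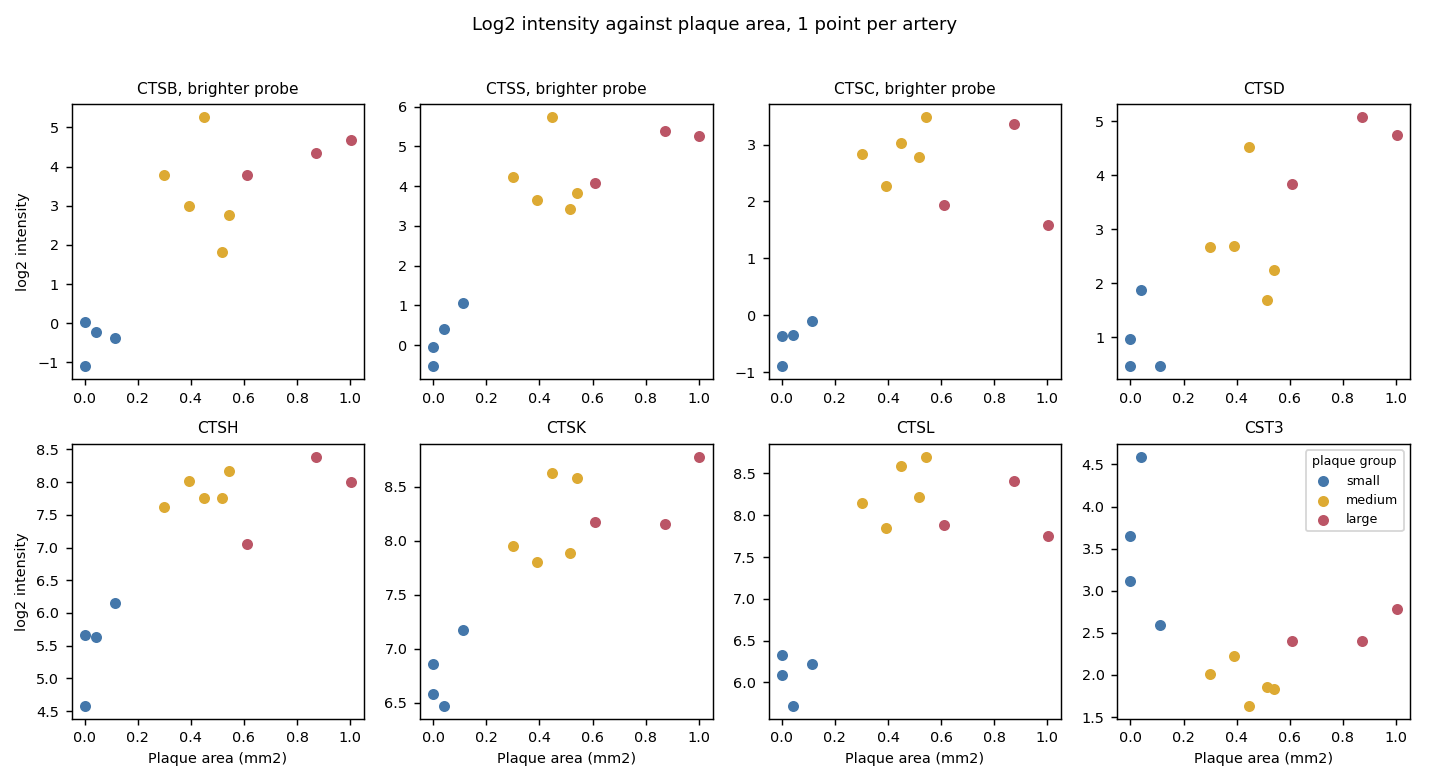
Log2 intensity against plaque area in mm2 for CTSB, CTSS and CTSC on their brighter probes and for CTSD, CTSH, CTSK, CTSL and CST3, 1 point per artery, with its own vertical scale in each panel. All small arteries lie below all others for the 6 proteases other than CTSD, for which small and medium overlap, and CTSD has its 2 highest values in arteries of 0.873 and 1.003 mm2.

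Plaque area itself was used next. Over all 12 arteries 5 of 14 protease probes rose with area, against 0.483% of all probes. CTSS had the steepest slope on its brighter probe, 5.80 ± 0.95 log2 units per mm2 (SE, n = 12; limma adjusted p 0.0311), and CTSB followed at 5.50 ± 1.06 (limma adjusted p 0.0418). CTSD at 4.17 ± 0.74, CTSH at 3.09 ± 0.61 and CTSK at 2.08 ± 0.38 were the others. CTSC at 3.49 ± 0.96 and CTSL at 2.44 ± 0.62 did not pass, with adjusted p-values of 0.104 and 0.0838, nor did CST3 at -1.28 ± 0.64. The count was 0 without any one of the 4 small arteries or without large replicate 3. It was 1 without large replicate 2, 2 without medium replicate 5 and 3 without medium replicate 3 or medium replicate 4.

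A slope over all arteries can come from a single step between small and the rest, so area was also fitted within the 8 medium and large arteries. With limma 0 of 15 member probes were called and 0% of all probes. The smallest unadjusted p-values were those of CTSD, at 3.53 ± 1.37 log2 units per mm2 (unadjusted p 0.0303, limma adjusted p 0.857), and CST3, at 1.17 ± 0.45 (unadjusted p 0.0279, limma adjusted p 0.851). For CST3 this sign is opposite to that over all 12 arteries. CTSC had -0.83 ± 0.95 and CTSL -0.31 ± 0.55 per mm2, both smaller than their errors. Without large replicate 1 these slopes were 0.89 and 0.42, so that their sign rested on that artery.

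The proteases were finally set against CST3 by taking its value in the same artery from each probe. Cystatin C does not inhibit CTSD, so for CTSD this is not a protease against its inhibitor. The difference measures whether a protease changed by another amount than CST3 did, not how much of either is present. The same CST3 values enter every probe, so all probes share their error. Since limma pools the spread over probes, p-values relative to CST3 can be too small. Relative to CST3 the brighter CTSS probe was 5.54 ± 0.58 higher in medium against small arteries and 5.65 ± 0.65 higher in large against small arteries (limma adjusted p 4.3e-06 and 7.92e-05). CTSB, at 5.32 ± 0.59 and 5.65 ± 0.67, was close to it. CTSZ, which had hardly differed by itself, was 1.73 ± 0.42 higher relative to CST3 in medium against small arteries on its brighter probe (limma adjusted p 0.00208). Almost all of this is the difference of CST3 itself, -1.58 (limma adjusted p 0.0232), since the CTSZ probe differed by 0.15.

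All 14 protease probes were called higher relative to CST3 in medium against small arteries, but so were 87.5% of all probes on the array. This count therefore does not set the proteases apart from other probes. In large against small arteries 10 of 14 protease probes were called higher relative to CST3, against 5.51% of all probes. The 4 not called were the dimmer probes of CTSC and CTSS and both probes of CTSZ. That contrast was not stable. With array weights 12 of 14 protease probes and 49.2% of all probes were called in either direction. Without small replicate 1, which had the lowest CST3 of its group, 12 of 14 protease probes and 62.7% of all probes were called, and without any one of the other arteries between 1.31% and 6.81% of all probes.

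Between large and medium arteries 0 of 14 were called relative to CST3 and 0% of all probes by limma. The smallest unadjusted p-values were those of CTSD and both CTSC probes. CTSD differed by 1.17 ± 0.56, the brighter CTSC probe by -1.21 ± 0.56 and the dimmer one by -1.36 ± 0.59. Their unadjusted p-values were 0.0481, 0.0427 and 0.0298, all with a limma adjusted p of 0.364. CST3 itself differed by 0.62 between these groups, which lowers each of these values by as much. By themselves CTSD differed by 1.79 and the CTSC probes by -0.59 and -0.74.

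**Figure D4:**
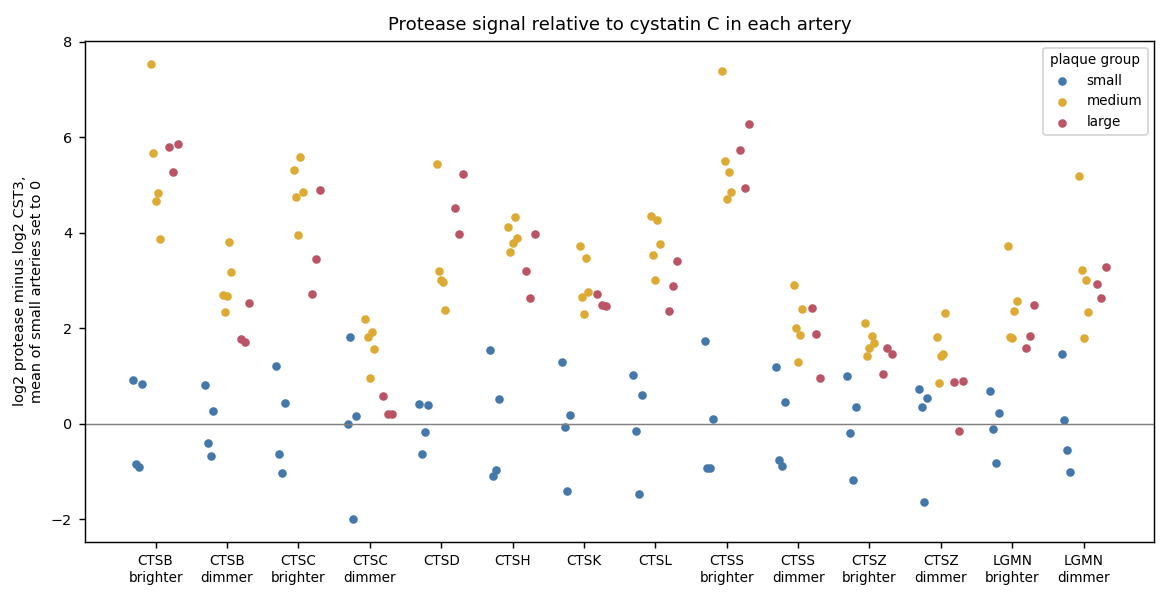
Log2 signal of each protease probe minus that of CST3 in the same artery, with the mean of the small arteries set to 0, in small, medium and large arteries (1 point each). For the brighter probes of CTSB and CTSS all medium and large arteries lie above 3, and no small artery lies above 2.

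Other cathepsins did not rise as a class. Of 7 measured, CTSA alone was called. Of all probes 1.97% were called higher in medium and 0.948% in large against small arteries. CTSA, cathepsin A, is a serine carboxypeptidase that also protects other lysosomal enzymes. It had -2.12, -0.94, 0.29 and -0.05 in small arteries, 4.22, 2.59, 2.71, 2.95 and 2.37 in medium arteries and 4.05, 2.73 and 3.84 in large arteries. CTSA rose by 3.68 ± 0.51 in medium against small arteries (limma adjusted p 0.00282) and by 4.25 ± 0.58 in large against small arteries (limma adjusted p 0.00537). The median difference of the 7 was -0.23 in medium and -0.10 in large arteries, close to that of all probes.

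CTSO, a little studied cysteine cathepsin, averaged -1.37 in medium and -0.69 in small arteries, a difference of -0.67 ± 0.21 that did not pass (limma adjusted p 0.116). In large against small arteries it differed by -0.98 ± 0.24 (limma adjusted p 0.0736). CTSF differed by -0.41 ± 0.17 in medium against small arteries (limma adjusted p 0.214).

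Among 11 measured of 13 other cystatins, CSTA was the 1 called in medium against small arteries, where 1.97% of all probes were called higher. CSTA, stefin A, is a cytosolic inhibitor of cysteine cathepsins. It had 2.52, -0.01, 0.00 and 0.71 in small arteries, 3.78, 3.55, 4.56, 4.59 and 4.46 in medium arteries and 2.67, 3.28 and 5.07 in large arteries, with no overlap with the small group. It rose by 3.38 ± 0.57 in medium against small arteries (limma adjusted p 0.0088) and differed by 2.87 ± 0.64 in large against small arteries (limma adjusted p 0.0574). CST3 and CSTA thus had opposite signs in medium arteries, each past the threshold.

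CST7, cystatin F of leukocytes, differed by 1.10 ± 0.42 in medium and 1.40 ± 0.47 in large against small arteries (limma adjusted p 0.187 and 0.175). CST6, cystatin M, differed by -0.72 ± 0.28 and -0.79 ± 0.32 (limma adjusted p 0.191 and 0.245). Of 6 measured further inhibitors, which were serpins and plasma proteins such as AHSG, no call was made by limma in either comparison and 0 had an unadjusted p under 0.05.

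Genes that tag lysosomal enzymes with mannose 6-phosphate and sort them were partly higher. Of 6 measured of 8, 2 rose in medium and 1 in large against small arteries, where 1.97% and 0.948% of all probes were called higher. M6PR, the cation-dependent mannose 6-phosphate receptor, had 1.95, 1.11, 0.84 and 1.79 in small arteries, 3.77, 2.42, 3.06, 3.67 and 3.21 in medium arteries and 3.87, 2.70 and 3.67 in large arteries. M6PR rose by 1.80 ± 0.34 in medium against small arteries (limma adjusted p 0.0161) and by 1.99 ± 0.39 in large against small arteries (limma adjusted p 0.0337). NAGPA, which uncovers the tag, rose by 1.18 ± 0.28 in medium against small arteries (limma adjusted p 0.0413). PSAP, the precursor of the saposins, passed for the slope on area alone, at 2.53 ± 0.48 log2 units per mm2 (limma adjusted p 0.0398).

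The other receptor, IGF2R, differed by 0.28 ± 0.29 in medium and 0.37 ± 0.33 in large against small arteries, and GNPTAB, a subunit of the enzyme that adds the tag, by -0.29 ± 0.21 and -0.06 ± 0.24. Among 4 measured substrates and partners, HLA-DMA, which loads peptides onto MHC class II after the invariant chain is cut, rose by 2.04 ± 0.27 and 1.79 ± 0.31 (limma adjusted p 0.00217 and 0.0171). It was the 1 called of the 4 in each comparison, where 1.97% and 0.948% of all probes were called higher. ELN, encoding elastin, differed by 0.004 ± 0.40 and 0.80 ± 0.45, and COL3A1 by -0.02 ± 0.21 and -0.38 ± 0.24.

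Some macrophage markers also rose. Of 12 chosen markers 10 were measured, and 6 rose in medium and 5 in large against small arteries, where 1.97% and 0.948% of all probes were called higher. Their median difference was 2.27 in medium and 2.01 in large arteries, that of all probes -0.09 and -0.10. Their summed intensity ranged from 68.1 to 128.9 in small arteries, from 217.4 to 392.6 in medium arteries and from 203.6 to 322.2 in large arteries. TYROBP, a signalling adaptor of myeloid cells, rose by 3.11 ± 0.29 and 3.07 ± 0.33, and CD163 by 2.68 ± 0.36 and 2.37 ± 0.41. CD68 averaged 5.66 in small, 5.22 in medium and 5.00 in large arteries and did not pass. C1QB, a subunit of complement C1q, differed by -0.29 ± 0.41 in medium and -0.11 ± 0.47 in large against small arteries and did not pass either. Of the 10 markers 0 were at the floor on every array. The summed intensity of 5 smooth muscle markers was 987 to 1753 in small arteries, 565 to 1020 in medium arteries and 722 to 1134 in large arteries. Of these 5 SMTN alone was called in medium against small arteries, lower by 2.40 (limma adjusted p 0.0184), where 1.17% of all probes were called lower. In large against small arteries SMTN differed by -0.97 (limma adjusted p 0.398) and 0 of the 5 were called. Of 4 measured T cell markers limma called 0 in either comparison, and their median difference from small was 1.04 in medium and 0.83 in large arteries. The part of these cell types in the protease differences was not tested.

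For each member the 3 genes with the most similar pattern over the 12 arteries were sought among 18070 other genes, by Pearson's r between brightest probes. All arteries share the step from small to the other groups, so a high r describes that step as much as anything finer. CTSS was closest to BATF (r = 0.99), HVCN1 and CYB561A3, and CTSB to SELENOP (r = 0.984), TRPV2 and TUBB. CTSH was closest to CD37 (r = 0.989), DOCK2 and SLCO2B1. GPR84, a receptor of myeloid cells, led for both CTSL (r = 0.989) and CTSC (r = 0.969), followed by FABP5 and LPXN for CTSL and by TREM1 and MS4A7 for CTSC.

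CTSK was closest to RALA (r = 0.979), FGGY and BCAT1. CTSD had other neighbours, NCK2 (r = 0.97), CRYL1 and BCKDHA, which like CTSD had a larger difference in large than in medium arteries, for NCK2 2.73 against 1.47. LGMN was closest to SOAT2 (r = 0.959), MPDU1 and SCIN. CTSZ had the lowest values, with GRAMD1A at 0.849. CST3 was closest to POU5F1 and LINC01672, both at r = 0.935, and to MSX1.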

How the data were processed

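The deposited values are linear single-dye probe intensities of CodeLink human arrays, 1 per artery, whose median the authors had scaled close to 1, as the values show. Per the labels' protocols RNA was amplified to biotinylated cRNA and stained with a fluorescent dye. How the image was read, corrected for background and scaled is not given in the sources used here.

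A probe entered the tests if every group had 2 or more arteries with a value (53877 of 54359 probes). Intensities below 0.111, the 5th percentile of positive values, were set to it before log2, which affected 5.45% of values. The arrays were not normalized again. Symbols are those of the platform annotation after old symbols were brought up to date by gene ID, though some may remain old. All 10 member symbols are also in the macaque RefSeq annotation (T2T-MFA8v1.1). No sequences or coordinates are printed.

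Tests used limma version 3.58.1 in R version 4.3.3 (lmFit with 3 group means over all 12 arrays, or a slope on area, and eBayes), two-sided, with Benjamini-Hochberg adjustment over all probes and a threshold of 0.05. The label "none" was taken as an area of 0. For comparisons with CST3 its log2 value was subtracted from every probe before the fit. The scripts were tested on simulated data. Gene lists were represented by the brightest complete probe. All members were named, with list genes that were called and up to 2 more of smallest p per list, and the 3 most similar genes per member; CALCR, IGF2R, ELN, COL3A1, GNPTAB and the macrophage markers were named for their roles after values were seen. The members and lists were chosen with earlier results of these data known. The number of arrays limits the precision.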

Additional observations from a re-analysis of the deposited data

Results flagged for a closer look

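On the dimmer LGMN probe small replicate 4 had a log2 intensity of -3.17, the floor, and stood apart from the other 3 small arteries, the nearest of which had -1.54. The gap was 0.835 of the whole range. It was the only such value among 30 groups of 4 or 5 arteries examined, where chance gives about 1 in 20. Without this animal the level of the probe was still not called, with differences of 1.07 in medium and 1.52 in large against small arteries (limma adjusted p 0.29 and 0.22).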

How the results depend on the processing

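The count of member probes called in medium against small arteries was 8 and stayed between 6 and 9 under all alternatives run. In large against small arteries it was 7, with 4 at a threshold of 0.01 and 4 to 8 when 1 artery was left out. In large against medium arteries and within medium and large plaques it was 0 throughout. The count rising with area was the least stable: 5 became 3 with the floor at the 1st percentile, 3 with array weights, 0 at a threshold of 0.01, 8 with the square root of area, and 0 to 6 when 1 artery was left out. It was also 0 without small replicate 4 and medium replicate 5, whose animal numbers lie far from the others. The cause was not tested. Relative to CST3 the count in medium against small arteries was 14 of 14, beside 87.5% of all probes called higher. It was 13 under array weights and 11 of the 11 left when dim probes were removed. In large against small arteries it was 10 (7 to 12). Across these fits of large against small arteries 1.31% to 62.7% of all probes were called in either direction. No called value changed sign, but 17 of 103 single-probe values did under at least 1 alternative, all of them not called, among them the dimmer CTSC probe in medium against small arteries (0.11, and -0.56 with array weights). Replacing the CST3 probe was not run, because it is the only probe with that single symbol.

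The replicate number was not taken to pair the animals in the main fits, although same-numbered pairs had the higher median correlation. These correlations do not settle whether the numbers pair the animals. They were taken between arteries of different groups, after the group mean of each probe had been removed. On these remaining values same-numbered arteries correlated at -0.159 to 0.216 (median 0.0824), with 4 of 10 pairs over 0.1, against 3 of 37 other pairs (median -0.0228). With the replicate number as a block 7 member probes were called in medium against small arteries, CST3 being lost (limma adjusted p 0.0702). The block left 7 called in large against small and 0 in large against medium arteries. Relative to CST3 14 protease probes were called in medium against small arteries. The same count without the block stood beside 87.5% of all probes. In large against small arteries 11 were called with the block, beside 10.2% of all probes.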
